A study of Mus musculus with 9 samples.

Results

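Transcripts of 9 molecules that dendritic cells use to help or restrain T cells, Cd80, Cd86, Cd40, Cd274, Pdcd1lg2, Icosl, Cd200, Btla and Havcr2, were followed across 3 sorted subsets of mouse spleen. The genes were taken by name from the deposited table of 14862 genes, where all 9 were found. The rule itself uses no measured value, but the names were chosen with earlier results of these data known. The cells were conventional dendritic cells of type 1 (cDC1) and type 2 (cDC2) and cells labelled mcDC, an abbreviation that the labels do not expand and that is used in the field for merocytic dendritic cells. All came from C57Bl/6 mice of 8 to 12 weeks with no treatment given in the labels, and RNA was sequenced in 3 libraries a subset, 9 in all. Neither the surface markers of the sort nor the number of animals behind a subset is given in the labels, so the spread that p-values measure is the one seen among these libraries and may be technical.

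A naive T cell needs antigen on MHC molecules together with a second, costimulatory signal. CD80 and CD86 bind CD28, which activates T cells, and CTLA-4, which restrains them, while ICOS ligand (Icosl) binds ICOS on activated and follicular helper T cells. CD40 receives CD40 ligand from helper T cells and raises the capacity of the dendritic cell to prime CD8 T cells. PD-L1 (Cd274) and PD-L2 (Pdcd1lg2) bind the inhibitory receptor PD-1, and CD200 binds an inhibitory receptor on myeloid cells. BTLA and TIM-3 (Havcr2) are inhibitory receptors, bound by HVEM and by several ligands that include galectin-9, so that 3 of the 9 molecules, CD40 among them, are receptors although the group is commonly listed with the ligands. In cDC1, TIM-3 is known to restrain responses to nucleic acids of dying tumour cells.

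Levels are in RPKM, which divides reads by gene length and by library total, so that genes can be compared. Depth, recovered from the steps between values, was 9.68 to 11.0 M reads for cDC1 libraries, 9.19 to 12.4 M for cDC2 and 5.14 to 8.22 M for mcDC. The replicate 3 library of mcDC stood apart as the shallowest, with 12.3% of genes at 0 against 2.71% to 6.47% in the other 8 libraries, and results that rest on it are also given without it. The labels were checked on marker genes. The summed level of 8 cDC1 markers (among them Xcr1, Clec9a and Cd8a) was 1680 to 2040 RPKM in cDC1, 204 to 253 in cDC2 and 433 to 880 in mcDC. That of 7 cDC2 markers (among them Itgam, Sirpa and Clec4a4) was 897 to 965 RPKM in cDC2, 51.6 to 189 in cDC1 and 319 to 575 in mcDC, so that the cDC1 and cDC2 libraries carried their own markers and mcDC lay between. In sorted bulk samples, fewer cells of a type and less RNA per cell cannot be told apart.

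Of the ligands of CD28, Cd86 separated the subsets and Cd80 did not. Cd86 (Entrez gene 12524) was at 133, 149 and 134 RPKM in cDC1 replicates 1, 2 and 3, at 32.02, 35.9 and 32.3 in cDC2, and at 46.0, 52.0 and 61.8 in mcDC. No library of any subset overlapped with another subset, with cDC1 highest and cDC2 lowest. The mean was 4.15 times that of cDC2 in cDC1 (log2 fold change 2.02 ± 0.13 SE on the log2(RPKM + 1) scale, limma adjusted p = 8.4e-06) and mcDC was lower than cDC1 (-1.37 ± 0.13, adjusted p = 0.00016). These differences passed an adjusted p of 0.05 in all 20 settings tried. Cd86 was higher in mcDC than in cDC2 (0.65 ± 0.13, adjusted p = 0.024), a call that was lost without cDC2 replicate 1, 2 or 3 (adjusted p = 0.0882, 0.0804 and 0.112) or mcDC replicate 2 (0.0655), with these groups fitted alone (0.0929) and with voom (0.0517), and that held in 14 of the 20 settings (adjusted p from 0.0101 to 0.112).

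Cd80 (12519) was at 26.2, 20.0 and 19.2 RPKM in cDC1, at 23.8, 19.0 and 19.1 in cDC2 and at 25.8, 18.6 and 14.96 in mcDC. The ranges of all 3 subsets overlapped, and replicate 1 was the highest library of each subset. Between cDC1 and cDC2 the log2 fold change was 0.07 ± 0.20 (95% interval -0.39 to 0.53, limma adjusted p = 0.88), and none of the 3 comparisons called the gene under any setting. The interval does not show that the subsets were equal, but differences of more than 0.61 on the log2 scale lay outside it in each comparison. The ratio of Cd86 to Cd80, per library and in RPKM, was therefore 5.09 to 7.44 in cDC1, 1.34 to 1.89 in cDC2 and 1.78 to 4.13 in mcDC. The cDC1 ratios lay above all others, and the mcDC and cDC2 ratios overlapped.

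**Figure D1:**
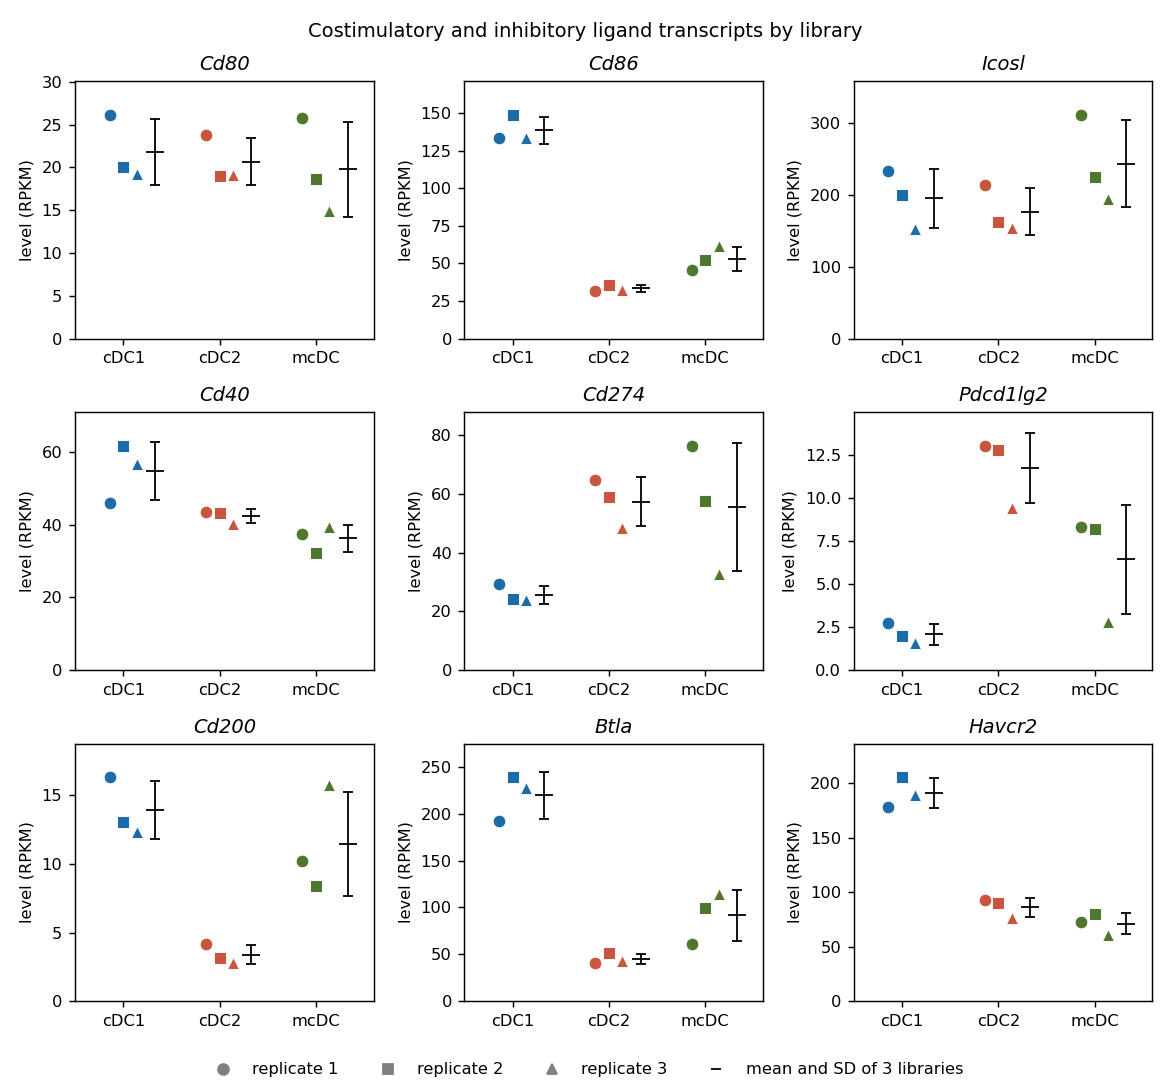
Level of each of the 9 transcripts in RPKM (vertical axis, from 0) in every library of cDC1, cDC2 and mcDC, with the marker shape giving the replicate and the black bar the mean and SD of 3 libraries. Cd86, Btla and Havcr2 are highest in all cDC1 libraries, Cd274 and Pdcd1lg2 are lowest there, and Cd80 and Icosl overlap between all subsets.

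Icosl (50723), the ligand of ICOS, was among the highest of the 9 transcripts in every subset. It was at 234, 201 and 152 RPKM in cDC1, at 214, 163 and 154 in cDC2 and at 312, 225 and 195 in mcDC, levels above those of at least 97.3% of the genes of each library. Replicate 1 was again the highest library of each subset, and all subsets overlapped. The log2 fold change was 0.14 ± 0.22 for cDC1 against cDC2, 0.31 ± 0.22 for mcDC against cDC1 and 0.45 ± 0.22 for mcDC against cDC2 (limma adjusted p = 0.76, 0.40 and 0.35). The 95% intervals reached -0.36 to 0.63, -0.18 to 0.81 and -0.05 to 0.94. Among libraries of the same replicate number, mcDC was the highest each time. Icosl was called higher in mcDC than in cDC1 in 1 of 20 settings, and than in cDC2 in 2 of 20. Both were called with a block for the runs of library titles, described below (limma adjusted p = 0.04997 and 0.0307).

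Cd40 (21939), the receptor for CD40 ligand, varied over a narrower range. It was at 46.0, 61.7 and 56.7 RPKM in cDC1, at 43.6, 43.3 and 40.2 in cDC2 and at 37.5, 32.1 and 39.2 in mcDC. All cDC1 libraries lay above all cDC2 libraries, which lay above all mcDC libraries, although cDC1 replicate 1 was close to cDC2. mcDC had 0.662 of the mean of cDC1 (log2 fold change -0.58 ± 0.13, limma adjusted p = 0.018). That call was lost without cDC1 replicate 2 or 3 (adjusted p = 0.0872 and 0.0727) or mcDC replicate 2 (0.0569), and with these groups fitted alone (0.0661), and it held in 16 of 20 settings (0.00839 to 0.0872). For cDC1 against cDC2 the log2 fold change was 0.35 ± 0.13 and did not pass (adjusted p = 0.10), and without cDC1 replicate 1 it was 0.47 and did (0.0375). For mcDC against cDC2 it was -0.22 ± 0.13 (adjusted p = 0.45).

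The inhibitory receptor Btla (208154) was the most abundant member in cDC1. It was at 192, 239 and 228 RPKM in cDC1, at 40.5, 51.2 and 42.8 in cDC2 and at 61.5, 99.2 and 114 in mcDC. The subsets did not overlap, and the mcDC libraries spread more widely than those of either other subset on the log scale. cDC1 had 4.90 times the mean of cDC2 (log2 fold change 2.27 ± 0.21, limma adjusted p = 8.1e-05), and mcDC was lower than cDC1 (-1.29 ± 0.21, adjusted p = 0.0033), calls that held in all 20 settings. mcDC was higher than cDC2 (0.97 ± 0.21, adjusted p = 0.039) in 9 of 20 settings only (0.00343 to 0.150). This call was lost with median-of-ratios scaling (0.0592), with these groups fitted alone (0.111), with no trend (0.0526), and without cDC1 replicate 1, 2 or 3 (0.0540, 0.0703 and 0.0713), cDC2 replicate 1, 2 or 3 (0.135, 0.0950 and 0.150), mcDC replicate 2 (0.119) or mcDC replicate 3 (0.0634).

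Havcr2 (171285), which encodes TIM-3, was at 178, 206 and 189 RPKM in cDC1, at 92.5, 90.2 and 76.0 in cDC2 and at 73.0, 79.8 and 61.2 in mcDC. The cDC1 libraries stood above all others, and the cDC2 and mcDC libraries overlapped. cDC1 had 2.22 times the mean of cDC2 (log2 fold change 1.14 ± 0.13, limma adjusted p = 0.00027) and mcDC had 0.373 times the mean of cDC1 (-1.42 ± 0.13, adjusted p = 0.00017), both in all 20 settings. Between mcDC and cDC2 the log2 fold change was -0.27 ± 0.13 (95% interval -0.57 to 0.02, adjusted p = 0.34). mcDC was thus near cDC2 for Havcr2 and between the others for Btla and Cd86. For Cd200, described next, it overlapped with cDC1 through replicate 3 alone.

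Cd200 (17470), whose protein signals to an inhibitory receptor on myeloid cells, was a low transcript. It was at 16.3, 13.1 and 12.4 RPKM in cDC1, at 4.17, 3.18 and 2.81 in cDC2 and at 10.2, 8.42 and 15.7 in mcDC, from 281 to 422, 82 to 90 and 110 to 198 recovered reads. The cDC2 libraries lay below all others. mcDC overlapped with cDC1 through replicate 3, the shallowest library, while mcDC replicates 1 and 2 lay below all cDC1 libraries. The log2 fold change was 1.77 ± 0.23 for cDC1 against cDC2 (limma adjusted p = 0.00050) and 1.48 ± 0.23 for mcDC against cDC2 (0.0083), and both passed in all 20 settings. Against cDC1, mcDC had -0.29 ± 0.23 (95% interval -0.81 to 0.22, adjusted p = 0.45), and -0.53 without mcDC replicate 3 (0.0702).

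The promoters of Btla and Havcr2, which were both higher in cDC1, are printed as the 250 bases before the RefSeq start on assembly GRCm38.p6, plus strand, at chr16:45224087-45224336 for Btla and chr11:46454681-46454930 for Havcr2. Capitals mark the matches, on either strand, to any of 5 short motifs, which were TTCNNNGAA (interferon gamma activated site), the interferon response element core, the composite element of ETS and IRF factors, TGANTCA (AP-1) and GAGGAAG (the core bound by PU.1, a myeloid transcription factor).
Btla: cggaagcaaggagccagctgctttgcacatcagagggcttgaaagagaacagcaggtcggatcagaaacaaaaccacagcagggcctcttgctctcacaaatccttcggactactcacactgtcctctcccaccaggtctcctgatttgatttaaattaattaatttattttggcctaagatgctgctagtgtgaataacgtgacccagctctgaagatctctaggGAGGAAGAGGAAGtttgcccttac
Havcr2: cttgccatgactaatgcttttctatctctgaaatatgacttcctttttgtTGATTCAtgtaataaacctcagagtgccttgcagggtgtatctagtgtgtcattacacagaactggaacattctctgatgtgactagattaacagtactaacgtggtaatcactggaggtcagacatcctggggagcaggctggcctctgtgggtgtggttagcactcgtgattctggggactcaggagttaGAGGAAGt
Btla held adjoining matches to GAGGAAG that begin 24 and 18 bases before the start and share 1 base. Havcr2 held GAGGAAG 8 bases and TGANTCA 200 bases before it. Among 27025 promoters of the same length, 10.4% held GAGGAAG and 6.87% held TGANTCA. Of the 7 members with a promoter in the reference table, Cd80 also matched TGANTCA, 42 bases before its start. The other 4, Cd274, Pdcd1lg2, Icosl and Cd200, matched none of the 5, although Cd200 too was higher in cDC1 than in cDC2. A match of letters is a description and not a binding site.

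The ligands of PD-1 ran the other way, with both lowest in cDC1. Cd274 (60533), PD-L1, was at 29.2, 24.2 and 23.7 RPKM in cDC1, at 64.7, 59.0 and 48.4 in cDC2 and at 76.4, 57.6 and 32.8 in mcDC. The cDC1 libraries lay below all others, and mcDC, with the widest spread of the subsets, overlapped with cDC2. cDC2 had 2.23 times the mean of cDC1 (log2 fold change for cDC1 against cDC2 -1.12 ± 0.26, limma adjusted p = 0.014). This call held in 16 of 20 settings and was lost without cDC1 replicate 2 or 3 (adjusted p = 0.0588 and 0.0589) or cDC2 replicate 1 or 2 (0.0575 and 0.0548).

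Cd274 was also higher in mcDC than in cDC1 (1.01 ± 0.26, limma adjusted p = 0.030), in 12 of 20 settings. The call was lost with quantile normalization (0.0589), with these groups fitted alone (0.0741), and without cDC1 replicate 1, 2 or 3 (0.0508, 0.106 and 0.104), cDC2 replicate 2 (0.0525) or mcDC replicate 1 or 2 (0.0562 and 0.0853). Without mcDC replicate 3, the lowest mcDC library for this gene, the log2 fold change was 1.34 and passed (0.00084). Between mcDC and cDC2 it was -0.12 ± 0.26 (95% interval -0.71 to 0.48, adjusted p = 0.87), and 0.22 without mcDC replicate 3 (0.525).

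Pdcd1lg2 (58205), PD-L2, was the lowest member in cDC1. It was at 2.74, 1.97 and 1.54 RPKM there, from 51 to 103 reads, at 13.0, 12.8 and 9.39 in cDC2, and at 8.32, 8.21 and 2.79 in mcDC, where replicate 3 had 49 reads. No subset overlapped with another, but mcDC replicate 3 was close to cDC1 replicate 1. The mean in cDC2 was 5.64 times that in cDC1 (log2 fold change for cDC1 against cDC2 -2.05 ± 0.34, limma adjusted p = 0.0022), in all 20 settings. The added pseudocount of 1 makes this fold change smaller than the ratio of means at such low levels.

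mcDC was higher than cDC1 for Pdcd1lg2 (1.18 ± 0.34, limma adjusted p = 0.045) in 7 of 20 settings only (adjusted p from 0.000496 to 0.149). The call was lost with quantile normalization (0.0501), median-of-ratios scaling (0.0579), no filter (0.0596), these groups fitted alone (0.109) and voom (0.0512). It was also lost without cDC1 replicate 1, 2 or 3 (0.0591, 0.131 and 0.149), cDC2 replicate 1, 2 or 3 (0.0671, 0.0741 and 0.0625) or mcDC replicate 1 or 2 (0.0991 and 0.128), and without mcDC replicate 3 the log2 fold change was 1.61 (0.000851). For mcDC against cDC2 it was -0.88 ± 0.34 and did not pass (0.22).

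Cd274 exceeded Pdcd1lg2 in every library. The ratio of their RPKM values was 10.7 to 15.4 in cDC1, 4.61 to 5.16 in cDC2 and 7.02 to 11.8 in mcDC. The cDC2 ratios lay below all others, and the mcDC range overlapped with that of cDC1. On assembly GRCm38.p6 the genes are neighbours on chromosome 19, with starts 43.5 kb apart on the plus strand. Their promoters, at chr19:29367188-29367437 and chr19:29410669-29410918, are printed beside those of Btla and Havcr2 because these genes had the opposite order of cDC1 and cDC2.
Cd274: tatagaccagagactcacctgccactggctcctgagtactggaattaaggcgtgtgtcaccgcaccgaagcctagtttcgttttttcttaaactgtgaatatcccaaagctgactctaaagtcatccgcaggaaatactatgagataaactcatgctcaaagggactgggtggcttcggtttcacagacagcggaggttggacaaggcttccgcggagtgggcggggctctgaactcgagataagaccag
Pdcd1lg2: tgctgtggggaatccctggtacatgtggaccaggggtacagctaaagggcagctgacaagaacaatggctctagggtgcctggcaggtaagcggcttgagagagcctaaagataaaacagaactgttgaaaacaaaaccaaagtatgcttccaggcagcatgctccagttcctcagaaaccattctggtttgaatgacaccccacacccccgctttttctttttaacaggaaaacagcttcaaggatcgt
Neither window held a match to any of the 5 motifs, so neither has capitals. The window of Cd200, which was higher in cDC1 than in cDC2 like Btla and Havcr2, held none either. Among the 7 members with a promoter, GAGGAAG was found for Btla and Havcr2 only. Whether matches go with the order of the subsets was not tested. The windows of Cd274 and Pdcd1lg2 have 50.4% and 48.4% G and C bases, against 47.2% for Btla, 44.8% for Havcr2 and 42.4% for Cd200.

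**Figure D2:**
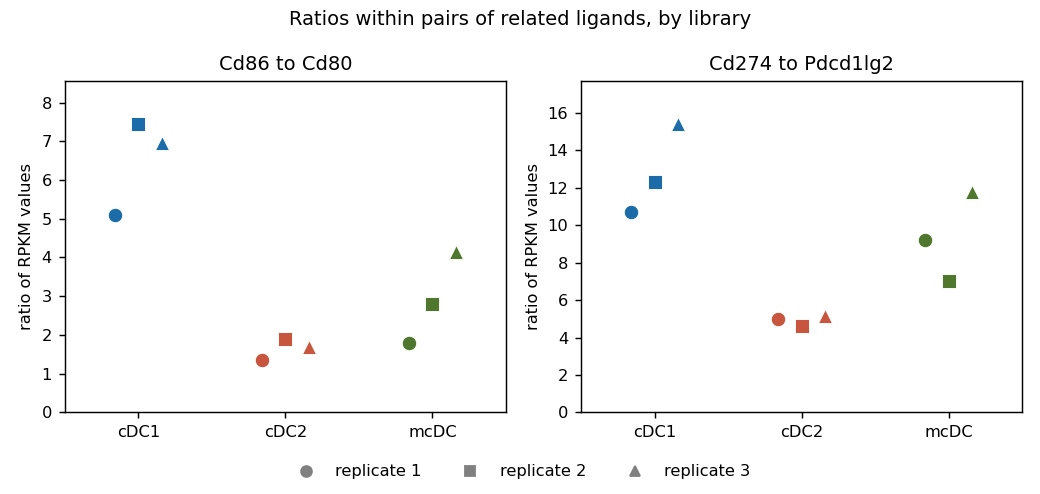
Ratio of RPKM values of Cd86 to Cd80 (left) and of Cd274 to Pdcd1lg2 (right) in every library, on linear axes from 0, with the marker shape giving the replicate. The Cd86 to Cd80 ratio is 5.09 to 7.44 in cDC1 and below that in all other libraries, and the Cd274 to Pdcd1lg2 ratio is 4.61 to 5.16 in cDC2 and above that in all other libraries.

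Counted together, 4 of the 9 members were higher and 2 lower in cDC1 than in cDC2 (limma, adjusted p of 0.05), where 19.6% of the 11971 genes tested were called, 8.85% higher and 10.7% lower. All 9 passed the filter on low values. The libraries did not overlap for 7 members, against 46.1% of all genes. For mcDC against cDC1, 2 members were higher and 4 lower, where 15.4% of genes were called, 9.53% higher and 5.88% lower, and 6 members did not overlap, against 30.5%. With median-of-ratios scaling the median over all genes in this comparison went from 0.09 to -0.02. After quantile normalization the 2 higher members were lost (0 higher and 4 lower), and the share of higher calls among all genes went from 61.8% to 48.5%. For mcDC against cDC2, 3 members were higher and 0 lower, where 3.66% of genes were called, 2.06% higher and 1.60% lower, and 5 members did not overlap, against 21.6%. The share of higher calls among all genes was 56.4% there, and 44.2% with median-of-ratios scaling. The median log2 fold change of the members was 0.35, -0.29 and -0.09 in these comparisons, and that of all genes -0.02, 0.09 and 0.06. The comparisons share libraries, so their members' values are given side by side and not counted against each other.

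**Figure D3:**
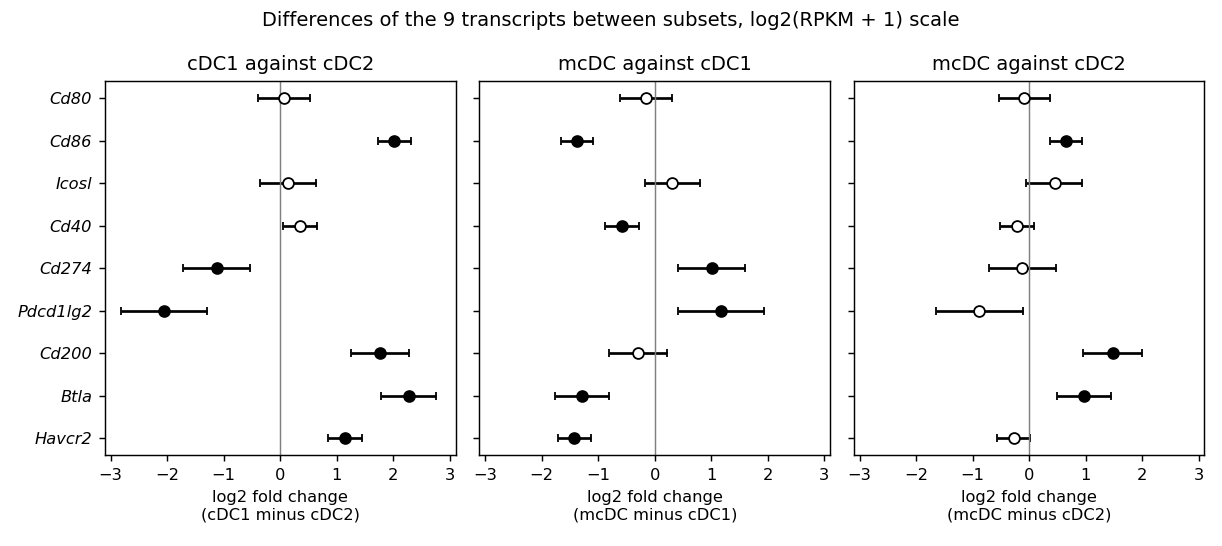
Difference of each member between subsets on the log2(RPKM + 1) scale (horizontal axis), with 95% intervals from limma, filled where the adjusted p is below 0.05. Btla, Cd86, Cd200 and Havcr2 lie right of 0 and Cd274 and Pdcd1lg2 left of it for cDC1 against cDC2, and Cd80 and Icosl are open in every panel.

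The order of the members differed between the subsets. In cDC1 it was Btla, Icosl and Havcr2, whose libraries overlapped with their neighbours, then Cd86, Cd40, Cd274, Cd80, Cd200 and Pdcd1lg2, of which Cd274 and Cd80 overlapped. In cDC2 it was Icosl, Havcr2, Cd274, Btla, Cd40, Cd86, Cd80, Pdcd1lg2 and Cd200, with overlap between Cd274 and Btla and between Btla and Cd40. In mcDC it was Icosl, Btla, Havcr2, Cd274, Cd86, Cd40, Cd80, Cd200 and Pdcd1lg2, where the libraries of Btla, Havcr2, Cd274 and Cd86 overlapped with their neighbours, as did those of Cd80 and Cd200. Cd86 thus stood above Cd274 in every cDC1 library and below it in every cDC2 library.

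Within mcDC, Btla and Cd86 had the same order of libraries as the summed cDC1 markers, and Havcr2 and Cd200, the other members called higher in cDC1 than in cDC2, did not. In mcDC replicates 1, 2 and 3 those markers summed to 433, 704 and 880 RPKM, with Btla at 61.5, 99.2 and 114 and Cd86 at 46.0, 52.0 and 61.8. The summed cDC2 markers were 575, 390 and 319 RPKM in the same libraries, with Cd274 at 76.4, 57.6 and 32.8. Havcr2 was at 73.0, 79.8 and 61.2 RPKM and Cd200 at 10.2, 8.42 and 15.7. The part of cDC1 or cDC2 cells, or of the depth of replicate 3, in these values was not tested.

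**Figure D4:**
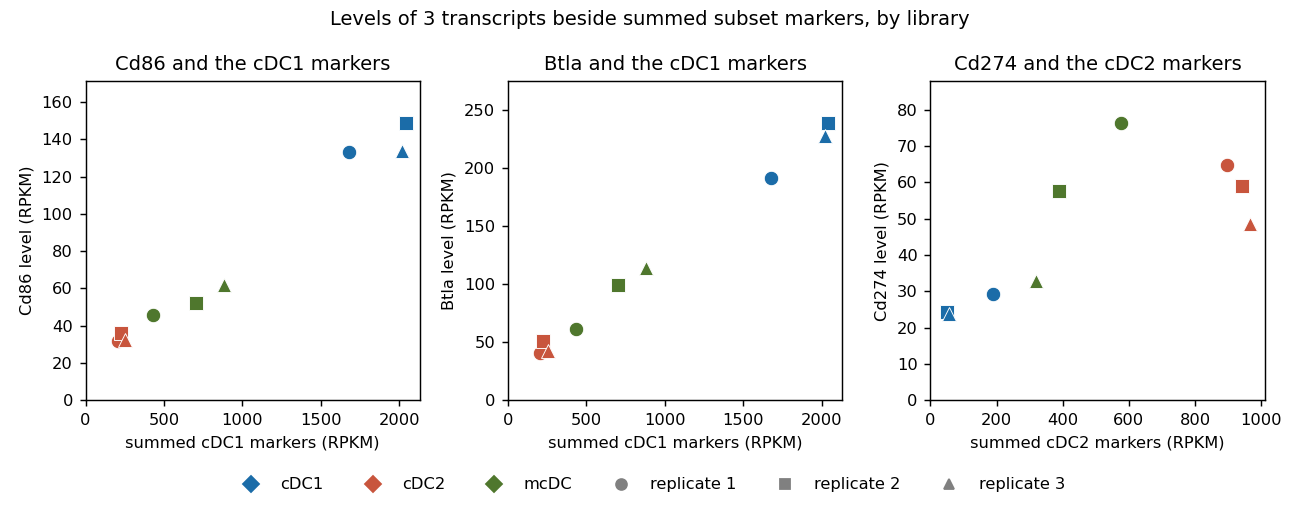
Level of Cd86, Btla and Cd274 (vertical axis, RPKM) against the summed level of cDC1 or cDC2 markers (horizontal axis, RPKM) in the 9 libraries, coloured by subset with the marker shape giving the replicate. The mcDC libraries lie between the conventional subsets for Cd86 and Btla, while mcDC replicate 1 has more Cd274, 76.4 RPKM, than any cDC2 library.

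Other blood cells also carry these transcripts, B cells in particular for Cd86, Btla, Icosl, Cd40 and Cd200. All 10 listed B cell markers were in the table, with a summed level of 57.0 to 60.9 RPKM in cDC1, 37.1 to 45.3 in cDC2 and 33 to 62.3 in mcDC. Of that sum, Fcrla alone was 24.6, 25.9 and 27.9 RPKM in cDC1 replicates 1, 2 and 3. It was at 0.802, 0.598 and 1.54 in cDC2 and at 2.51, 6.19 and 2.87 in mcDC. The higher sum of cDC1 than of cDC2 rests on this gene. For cDC1 against cDC2, 2 of the 9 B cell markers tested were higher and 3 lower. For mcDC 4 were higher and 1 lower than in cDC1, and 2 higher and 0 lower than in cDC2. The higher counts for mcDC were 3 and 0 after quantile normalization, and median-of-ratios scaling gave 2 and 1. In mcDC replicates 1, 2 and 3 the B cell sum was 62.3, 57.9 and 33 RPKM, while Btla was at 61.5, 99.2 and 114. T cell markers (8 of 8 in the table) summed to 33.2 to 64.9, 21.0 to 33.7 and 38.4 to 68.9 RPKM in cDC1, cDC2 and mcDC, NK cell markers (6 of 6) to 63.4 to 83.4, 49.2 to 73.0 and 87.9 to 193, and plasmacytoid dendritic cell markers (6 of 6) to 93.8 to 156, 59.3 to 94.9 and 104 to 204. Most of the plasmacytoid sum was Bst2, at 76.5, 102 and 169 RPKM in mcDC replicates 1, 2 and 3. Counted by gene, 0 of these 6 markers were higher and 2 lower in mcDC than in cDC1. For mcDC against cDC2, 0 were higher and 0 lower, and for cDC1 against cDC2, 3 were higher and 0 lower. Monocyte and macrophage markers (10 of 10) are of cells that carry Cd274 and Havcr2. They summed to 186 to 269, 914 to 1820 and 585 to 923 RPKM in cDC1, cDC2 and mcDC. Most of that sum in cDC2 was Lyz2, at 698, 1180 and 1460 RPKM in replicates 1, 2 and 3. Counted by gene, 5 of these 10 markers were higher and 1 lower in mcDC than in cDC2. Against cDC1, 8 were higher and 0 lower in mcDC, and for cDC1 against cDC2, 1 was higher and 4 lower. Neutrophil markers (6 of 6) summed to 9.72 to 37.5, 125 to 1560 and 1.41 to 37.3 RPKM in cDC1, cDC2 and mcDC, with Camp at 0 in all mcDC libraries. In cDC2 replicates 1, 2 and 3 the neutrophil sum was 125, 896 and 1560 RPKM, while Cd274 was at 64.7, 59.0 and 48.4. Erythroid markers (4 of 5) summed to 2.17, 78.0 and 59.9 RPKM in cDC1 replicates 1, 2 and 3. They summed to 0.794, 11.1 and 7.24 in cDC2 and to 1.34, 64.1 and 26.4 in mcDC, so that replicate 1 was the lowest library of each subset. The part of these cells in the differences was not tested.

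Mature dendritic cells raise Cd80, Cd86 and Cd40 together, so 8 maturation genes were set beside the members. Their summed level was 741 to 919 RPKM in cDC1, 103 to 249 in cDC2 and 238 to 401 in mcDC, and 7 of 8 were higher in cDC1 than in cDC2. For mcDC, 4 of 8 were lower than in cDC1, and 6 with median-of-ratios scaling. Ccr7, the chemokine receptor that guides dendritic cells to lymph nodes, was at 221, 263 and 209 RPKM in cDC1, at 90.1, 33 and 30.8 in cDC2 and at 149, 68.8 and 75.3 in mcDC. Replicate 1 was the highest library of cDC2 and of mcDC for Ccr7, as it was for Cd80 and Icosl. Ccl17, a maturation chemokine, was the exception among the 8, at 0 to 1.72 RPKM in all libraries and listed at 0 in each mcDC library. The part of maturation in the differences of the members was not tested.

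Relatives of the members and their receptors were counted next. For the counts of listed genes, here and above, the background is the share of all tested genes called. It was 19.6% for cDC1 against cDC2, 15.4% for mcDC against cDC1 and 3.66% for mcDC against cDC2. No list was tested as a set. Of 9 other genes of the B7, CD28 and butyrophilin families in the table, 6 could be tested, and 2 were lower in cDC1 than in cDC2 and 0 higher. Vsir, which encodes the inhibitory ligand VISTA, was at 39.7 ± 2.39 RPKM in cDC1, 59.9 ± 3.98 in cDC2 and 33 ± 5.91 in mcDC (mean ± SD, 3 libraries). It was lower in cDC1 than in cDC2 (log2 fold change -0.58 ± 0.14, limma adjusted p = 0.017), which was lost without cDC1 replicate 1 or 3 or cDC2 replicate 2 or 3 (adjusted p up to 0.074), and lower in mcDC than in cDC2 (-0.86 ± 0.14, 0.011), which was lost without cDC2 replicate 2 or 3 (up to 0.071). Cd276, B7-H3, the other gene called lower in cDC1 than in cDC2 (adjusted p = 0.037, up to 0.12 with a library left out), was at most at 2.01 RPKM in any library.

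Of 13 receptors and partners in the table, 12 could be tested, and 2 were lower and 0 higher in cDC1 than in cDC2 (1 and 0 with median-of-ratios scaling, 2 and 3 without mcDC replicate 3). Ceacam1, an adhesion molecule and ligand of TIM-3, was at 1.09 ± 0.493 RPKM in cDC1, 18.8 ± 2.14 in cDC2 and 3.50 ± 2.25 in mcDC (log2 fold change for cDC1 against cDC2 -3.27 ± 0.32, limma adjusted p = 9.3e-05, in all 20 settings), a direction opposite to that of Havcr2. It was also lower in mcDC than in cDC2 (-2.24 ± 0.32, adjusted p = 0.0057), again in all 20 settings. Lgals9, galectin-9, was at 13.5 ± 3.17, 25.8 ± 5.83 and 30.3 ± 10.8 RPKM. It was called higher in mcDC than in cDC1 (1.08 ± 0.26, adjusted p = 0.022), which was lost without cDC1 replicate 1 or 2 (up to 0.095), and lower in cDC1 than in cDC2 (0.042) in 12 of 20 settings. Cd160, another receptor for HVEM, was higher in mcDC than in cDC2, at 7.43 ± 4.09 against 0.670 ± 0.316 RPKM (2.23 ± 0.35, 0.0086, in all 20 settings). In mcDC replicates 1, 2 and 3 Cd160 was at 3.35, 7.41 and 11.5 RPKM, where the NK cell markers summed to 87.9, 138 and 193. The part of NK cells in Cd160 was not tested. Tnfrsf14, which encodes HVEM, the ligand of BTLA, was at 47.9, 57.8 and 48.7 RPKM in cDC1, at 38.2, 35.9 and 32.4 in cDC2 and at 35.6, 42.0 and 7.83 in mcDC, with limma adjusted p = 0.56, 0.16 and 0.58 for cDC1 against cDC2, mcDC against cDC1 and mcDC against cDC2. Without mcDC replicate 3, its lowest library, Tnfrsf14 was called higher in cDC1 than in cDC2 (adjusted p = 0.00857), as it was with these groups fitted alone (0.00726). It is outside the rule for named genes and was chosen after its values were seen.

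Among 7 costimulatory ligands of the TNF superfamily, 3 were above the filter, and 2 of these were lower in cDC1. Tnfsf14, LIGHT, was at 1.82 ± 0.294 RPKM in cDC1, 11.9 ± 2.02 in cDC2 and 6.21 ± 2.03 in mcDC, lower in cDC1 than in cDC2 (log2 fold change -2.18 ± 0.22, limma adjusted p = 0.00013) and higher in mcDC than in cDC1 (1.32 ± 0.22, 0.0038), both in all 20 settings. Tnfsf8, CD30 ligand, was at 0.642 ± 0.274, 5.11 ± 2.12 and 3.65 ± 1.81 RPKM. Tnfsf9, the ligand of 4-1BB, was at 6.82 ± 1.84, 7.92 ± 1.55 and 8.05 ± 2.83 RPKM and was not called.

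Of all genes tested, 10.7% were called lower and 8.85% higher in cDC1 than in cDC2. Downstream of CD40, 3 of 18 signalling genes were lower and 0 higher in cDC1 than in cDC2. These were Nfkb1, an NF-kB subunit, at 89.7 ± 27.7 against 213 ± 12.9 RPKM (-1.28 ± 0.23, limma adjusted p = 0.0039), the kinase Jak3 at 15 ± 2.08 against 30.2 ± 4.43 (-0.96 ± 0.17, 0.0033) and the kinase Mapkapk2 at 77.6 ± 6.95 against 121 ± 3.41 (-0.63 ± 0.10, 0.0020), each in all 20 settings. For mcDC against cDC1, 3 were higher and 0 lower, but 1 and 0 after quantile normalization and 2 higher and 1 lower with median-of-ratios scaling. Interferon gamma induces Cd274, and of 12 genes of its pathway 2 were higher and 3 lower in cDC1 than in cDC2. Irf1 encodes a transcription factor that acts on the Cd274 gene. It was higher in cDC1 than in cDC2, at 119 ± 10.3 against 71.0 ± 3.93 RPKM (0.74 ± 0.11, adjusted p = 0.0014). In mcDC it was at 63.9 ± 5.89 RPKM, lower than in cDC1 (-0.89 ± 0.11, 0.00081). Socs3, a feedback inhibitor of cytokine signalling, was lower in cDC1, at 4.22 ± 1.22 against 25.9 ± 4.72 RPKM (-2.38 ± 0.30, 0.00047). Between cDC1 and cDC2, Irf1 and Socs1 ran opposite to Cd274, and Socs3, Stat2 and Ifngr2 ran the same way. The part of this pathway in the level of Cd274 was not tested.

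Of 19 other inhibitory and adhesion molecules tested, 5 were higher and 7 lower in cDC1 than in cDC2. Pvr, the ligand of the T cell receptors TIGIT and CD226, was at 20.7 ± 3.25 RPKM in cDC1, 4.06 ± 0.397 in cDC2 and 3.97 ± 0.806 in mcDC (log2 fold change for cDC1 against cDC2 2.09 ± 0.18, limma adjusted p = 4.7e-05). Siglece, an inhibitory lectin, was at 2.29 ± 0.467, 32.2 ± 0.735 and 21.7 ± 0.968 RPKM (-3.35 ± 0.13, 9.4e-07), and Cd300a, an inhibitory receptor for phosphatidylserine, at 12.3 ± 2.51, 59.9 ± 11.7 and 36.1 ± 6.34 (-2.19 ± 0.20, 6.9e-05). For mcDC against cDC1, 7 were higher and 2 lower, with 5 and 3 after quantile normalization and 4 and 3 with median-of-ratios scaling. Of 8 phosphatases and adaptors of inhibitory receptors, 1 was higher and 2 lower in cDC1 than in cDC2. Ptpn6, the phosphatase SHP-1, which BTLA recruits, was at 125 ± 23.3 RPKM in cDC1, 352 ± 23.1 in cDC2 and 271 ± 13.4 in mcDC (-1.50 ± 0.14, adjusted p = 8.3e-05), a direction opposite to that of Btla between cDC1 and cDC2. The calls for Pvr, Siglece, Cd300a and Ptpn6 held in all 20 settings. Of the 8 phosphatases and adaptors, the 1 higher in cDC1 was Inpp5d, with the direction of Btla. It was at 142, 154 and 139 RPKM in cDC1 and at 101, 98.4 and 88.9 in cDC2, and its call held in 15 of 20 settings.

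Likeness of pattern was measured for the 6 members whose SD over the 9 libraries was at least 0.5 on the log2(RPKM + 1) scale, as the root mean square difference between profiles centred on their own means, over 8143 other genes with a mean of at least 5 RPKM. For Btla the nearest were Sema4c (0.174), Cd86 (0.204) and Galc (0.210), so that another member ranked 2 of 8143. For Cd86 they were Pde1b (0.133), Galc (0.136) and Clip2 (0.137), with Btla at rank 11. For Havcr2 they were Trafd1 (0.138), Als2cl (0.148) and Epsti1 (0.158), with the members Cd40, Cd86 and Btla at ranks 352, 549 and 2403. For Cd274 they were Eef2k (0.109), Prkcb (0.116) and Fcrl1 (0.134), with its neighbour Pdcd1lg2 at rank 847. For Pdcd1lg2 they were Il31ra (0.212), Mycbp2 (0.220) and Ap1s2 (0.224), with Cd274 at rank 107. For Cd200 they were Anxa3 (0.252), Snn (0.272) and Sema6d (0.282), with Cd86 at rank 105 and Btla at rank 119. Cd80, Cd40 and Icosl varied less than 0.5, and no nearest genes were sought for them.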

How the data were processed

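RNA of sorted dendritic cells was made into directional libraries, per the labels' protocols. The authors deposited RPKM values for 14862 genes in 1 table, and 8 single-library files held the same values. No header states the unit. It was inferred from the values, since whole reads were recovered for 100.0% of nonzero values (within 0.001 read). The submitters' processing notes name build mm8. The aligner, the counter, the annotation and the use of strand are not given in the sources used here. There were 0 columns of other samples.

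Differences were tested with limma 3.58.1 (R 4.3.3) on values of log2(RPKM + 1), with all 3 subsets in 1 model and a trended prior, over the 11971 genes that exceeded 1 RPKM in 2 or more libraries, with 6 residual degrees of freedom. P-values were adjusted by Benjamini and Hochberg over all genes tested and called at 0.05. The fit was also run on simulated data in which libraries varied independently, without the correlation seen within runs of titles. No result here rests on that.

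Replicates were numbered in accession order within a subset. Members and lists were chosen with earlier results of these data known, and the motifs after the members' values were seen. The rule for named genes took all members. From each list and comparison it took up to 3 called genes of the commoner direction with the largest change, up to 2 of the other direction and the most abundant gene; the text gives those that bear on the members. Marker lists were used whole. Promoters come from RefSeq (GRCm38.p6), which held 7 of the 9 members. The 20 settings counted in the text are this fit and the alternatives. Those were quantile and median-of-ratios scaling, a pseudocount of 0.1, filters of 0 and 5 RPKM, a fit of only the compared subsets, an untrended prior, a block for the run of library titles (also without mcDC replicate 3), voom on recovered reads, and each library left out.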

Additional observations from a re-analysis of the deposited data

How the results depend on the processing

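Of the members' log2 fold changes under the alternatives, 454 kept direction and side of the threshold, 46 lost a call, 5 gained one and 8 changed sign, all 8 for differences that were not called. Cd80 changed sign for cDC1 against cDC2 without cDC1 replicate 1 (range over left-out libraries -0.06 to 0.17), for mcDC against cDC1 without mcDC replicate 3 (-0.35 to 0.02), and for mcDC against cDC2 without cDC2 replicate 1 (0.02) or mcDC replicate 3 (range -0.28 to 0.09). Icosl did so for cDC1 against cDC2 without cDC1 replicate 1 (range -0.002 to 0.31), and Cd274 for mcDC against cDC2 without mcDC replicate 3 (range -0.38 to 0.22). With only the compared subsets fitted, 3731, 1096 and 251 genes were called for cDC1 against cDC2, mcDC against cDC1 and mcDC against cDC2, where all subsets together gave 2344, 1845 and 438, and the members called were 3 and 1 in the last 2 comparisons. Leaving out each library gave 1547 to 3467, 951 to 2601 and 158 to 896 genes, and 5 to 7, 3 to 6 and 1 to 3 members. The counts moved by over 1.5 times without cDC1 replicate 2 (1547 and 951 in the first-named comparisons), cDC1 replicate 3 (1133 for mcDC against cDC1), and, for mcDC against cDC2, cDC2 replicate 1, 2 or 3 (279, 158 and 188) and mcDC replicate 1 (896). Members called fell to 3 without cDC1 replicate 2 or 3 or mcDC replicate 2 for mcDC against cDC1, and to 1 without any cDC2 library or mcDC replicate 2 for mcDC against cDC2. The cause was not tested. Low read numbers limit Pdcd1lg2 (49 to 103 reads in cDC1 and mcDC replicate 3) and Cd200 in cDC2 (82 to 90).

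Library titles run in consecutive sets that hold 1 library of each subset, but the labels do not say that a set shares a day or animals. Over 8358 genes, deviations from the subset means correlated above 0.1 in 8 of 9 same-run pairs (0.071 to 0.553), and 9 of 9 libraries correlated best with their own run, a hint from the data, not the design. With the run as a replicate block, 2942, 2474 and 773 genes and 6, 7 and 4 members were called. Icosl was then higher in mcDC than in cDC1 (limma adjusted p = 0.04997, at the threshold) and than in cDC2 (0.0307). With the block and without mcDC replicate 3 the counts were 4274, 3003 and 718 genes, Cd80 and Cd274 were at 0.02 and 0.13 for mcDC against cDC2, and Cd200 was lower in mcDC than in cDC1 (-0.61, limma adjusted p = 0.00940).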
